A study of Homo sapiens with 8 samples.

Results

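The integrated stress response genes described here are 10 genes: ATF4, ATF5, ATF3, DDIT3, DDIT4, CEBPB, TRIB3, PHGDH, SLC7A11 and SLC3A2. They were found in the count table by their GENCODE 44 symbols, and all 10 were present among its 58302 genes. The set was selected on the siAPEX1-against-siCTRL values of these same libraries, so the changes below are a description and are given without a test of any single gene. RNA was sequenced from A549 cells, a line from a human lung adenocarcinoma, after transfection with an siRNA against APEX1 (4 libraries, siAPEX1) or a control siRNA (4 libraries, siCTRL). APEX1 encodes APE1, an endonuclease of base excision repair. No other treatment or genotype separated the groups, and one cell line carries every result.

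The integrated stress response is the pathway by which kinases that sense amino acid shortage, misfolded proteins, double-stranded RNA or haem deficiency phosphorylate the initiation factor eIF2. General translation then falls, while messages with upstream reading frames, among them those of ATF4, ATF5 and DDIT3, are translated better. ATF4 and ATF5 are bZIP transcription factors, and ATF4 together with C/EBP partners is known to switch on genes for amino acid synthesis, amino acid import and redox balance. Much of this control acts on translation, which RNA counts do not measure.

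The libraries held 1348386 to 1949886 counts on genes, and every siAPEX1 library was smaller than every siCTRL library. The levels below are in CPM, a gene's count relative to the library's total after correction of that total by a TMM factor (trimmed mean of M values). These factors lay between 1.10 and 1.14 in siCTRL and between 0.873 and 0.919 in siAPEX1, so library size, scaling factor and condition cannot be told apart. APEX1 had 47 to 64 counts in siCTRL and 19470 to 27916 in the libraries labelled siAPEX1, which goes against silencing. Counts per gene do not separate the transcript from the transfected siRNA. The study judged silencing from APE1 protein, which was not analysed here, and each direction below is that of the libraries as labelled. Of 12 markers of A549 and lung epithelium, 8 could be tested. At an adjusted p of at most 0.05 (edgeR) 5 were lower and 2 higher in siAPEX1 (62.5% and 25.0%, beside 15.8% and 15.9% of all genes tested). KRT7, KRT8, KRT18, KRT19 and NQO1 were lower, and CDH1 and AKR1B10 higher. The summed level of the 12 markers, which mixes both directions, was 865 to 1050 CPM in siCTRL and 606 to 673 CPM in siAPEX1. SFTPB, SFTPC and NKX2-1 had at most 1 count in each library. Of 10 markers of other cell types 8 had at most 1 count in each library, and the 10 together summed to 3.87 to 8.30 CPM in siCTRL and 1.59 to 4.94 CPM in siAPEX1. The part of these shifts in the results below was not tested.

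The promoters of the genes were read from RefSeq (GRCh38.p14), in windows from 250 bases before to 50 bases after each start. The table holds 19 windows for 9 of the 10 genes, all but SLC7A11. Both strands were searched for the letters of 5 motifs that bZIP factors of this pathway are known to bind. The C/EBP-ATF response element (TGATGNAAN) was found in 2 of the 9 genes, ATF3 and SLC3A2, against 4.45% of all 27305 genes with a window. The AP-1 site (TGANTCA) was found in 3 of the 9, ATF5, DDIT3 and SLC3A2, against 9.37%. The antioxidant response element core (TGACNNNGC) was found in 3 of the 9, CEBPB, SLC3A2 and TRIB3, against 16.1%. The full cAMP response element (TGACGTCA) was found in 0 of the 9 and in 2.25% of all genes, and its shorter core TGACG, which the full element contains, in 4 of the 9, ATF4, ATF5, CEBPB and SLC3A2, against 28.4%. Genes differ in their number of windows. Such matches are letters in a window, and no binding was measured.

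The upstream 250 bases of 4 windows are printed 5′ to 3′ on the plus strand, with the matched letters in capitals. ATF3 and SLC3A2 are shown as the genes with a C/EBP-ATF response element, and CEBPB and ATF5 as the genes at the opposite ends of the changes described below. The ATF3 window is chr1:212565157-212565406, and its capitals mark the C/EBP-ATF response element at 191 bases before the start. The SLC3A2 window is chr11:62881449-62881698, where the capitals mark TGACG on the opposite strand and an AP-1 site that overlaps an antioxidant response element core. Its C/EBP-ATF response element, CTTACATCA on the plus strand, begins at base 37 after the start. The CEBPB window is chr20:50190580-50190829, with an antioxidant response element core that contains TGACG. The ATF5 window is chr19:49928656-49928905, with an AP-1 site at 188 bases before the start.
ATF3: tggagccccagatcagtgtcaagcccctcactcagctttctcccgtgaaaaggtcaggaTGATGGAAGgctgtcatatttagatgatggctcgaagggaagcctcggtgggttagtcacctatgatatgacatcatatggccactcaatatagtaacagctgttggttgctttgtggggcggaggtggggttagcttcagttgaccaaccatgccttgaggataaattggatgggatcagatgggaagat
SLC3A2: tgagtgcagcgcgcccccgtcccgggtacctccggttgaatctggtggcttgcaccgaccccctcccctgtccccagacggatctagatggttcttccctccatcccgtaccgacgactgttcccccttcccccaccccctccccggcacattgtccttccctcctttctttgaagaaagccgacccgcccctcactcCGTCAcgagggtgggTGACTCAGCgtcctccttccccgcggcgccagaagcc
CEBPB: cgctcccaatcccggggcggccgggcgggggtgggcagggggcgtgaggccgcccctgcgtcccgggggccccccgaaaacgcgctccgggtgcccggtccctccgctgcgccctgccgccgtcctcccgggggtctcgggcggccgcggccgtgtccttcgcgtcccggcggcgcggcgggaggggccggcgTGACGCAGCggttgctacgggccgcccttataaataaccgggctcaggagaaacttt
ATF5: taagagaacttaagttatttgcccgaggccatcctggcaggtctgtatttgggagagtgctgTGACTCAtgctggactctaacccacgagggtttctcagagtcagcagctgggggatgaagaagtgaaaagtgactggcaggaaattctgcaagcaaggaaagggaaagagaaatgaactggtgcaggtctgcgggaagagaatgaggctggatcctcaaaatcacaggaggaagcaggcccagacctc

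The members moved in opposite directions. ATF5 and PHGDH were lower in siAPEX1, CEBPB and DDIT4 were higher, and the other 6 genes changed by 0.35 or less on the log2 scale in either direction. All 10 passed the filter on low counts, ATF5 and PHGDH only through siCTRL, the group in which they were high. At an adjusted p of at most 0.05 (edgeR quasi-likelihood test, Benjamini-Hochberg over 5368 genes) 2 of the 10 were higher, beside 15.9% of all genes tested, and 2 were lower, beside 15.8%. Among protein-coding genes alone these shares were 12.5% higher and 15.9% lower. When a log2 fold change of 1 or more in either direction was also required, 0 of the 10 were higher, beside 3.6% of all genes, and 2 were lower, beside 5.68%. The count of 0 was also 0 at an unadjusted p of at most 0.05 and with DESeq2. All siAPEX1 libraries lay above all siCTRL libraries for 3 of the 10 genes, beside 14.0% of all genes, and below them for 2, beside 14.9%. The median log2 fold change was 0.02 over the 10 genes and −0.0035 over all genes tested. Nothing is read from these shares, since the contrast chose the genes. Scaling by library size alone, without TMM factors, moved the split of calls over all genes from 50.3% higher to 14.9% higher. In bulk RNA, fewer cells with a transcript and less of it per cell cannot be told apart.

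**Figure D1:**
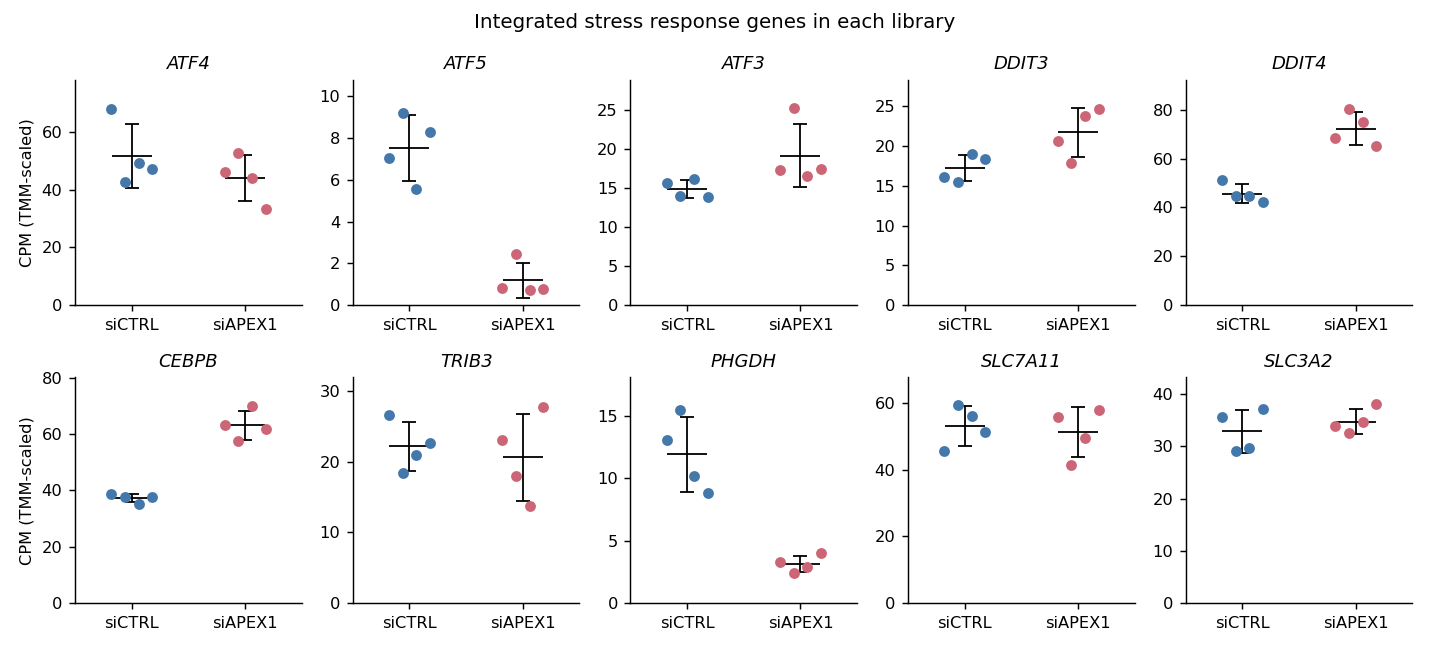
TMM-scaled CPM (vertical axes, each from 0) of the 10 integrated stress response genes in the 4 siCTRL libraries (blue) and the 4 siAPEX1 libraries (red); bars give the mean ± SD. ATF5 and PHGDH sit below siCTRL in every siAPEX1 library, and ATF3, DDIT4 and CEBPB above it.

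ATF4 (ENSG00000128272, GRCh38 chromosome 22 from 39519695 to 39522683) encodes the central transcription factor of the response. It had 135, 88, 106 and 85 counts in siCTRL and 56, 65, 61 and 42 in siAPEX1. Scaled, this was 51.7 ± 11.1 CPM (SD, n = 4) and 44.1 ± 8.05 CPM (SD, n = 4), and the log2 fold change was −0.23 (standard error 0.144). The raw counts of the groups did not overlap, but the scaled levels did, with 42.6 to 67.9 CPM in siCTRL and 33.4 to 52.8 CPM in siAPEX1.

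ATF5 (ENSG00000169136, chromosome 19 from 49928702 to 49933935) encodes a bZIP factor related to ATF4 that is known for its link to mitochondrial protein stress. It had 14, 19, 12 and 15 counts in siCTRL and 1, 3, 1 and 1 in siAPEX1. All siAPEX1 libraries lay below all siCTRL libraries, at 1.19 ± 0.829 CPM (SD, n = 4) against 7.53 ± 1.58 CPM (SD, n = 4). The ratio of the summed counts, 6 against 60 and scaled for library size, was 0.157, with an exact 95% counting interval from 0.0556 to 0.363. Inverted, this is a level 6.35-fold lower (2.75 to 18.0), an interval that covers counting error only. The fitted log2 fold change of −2.59 (standard error 0.465) depends on the prior count, and without siAPEX1 replicate 2, the library with 3 counts, it was −3.13. ATF5 shares exon bases with NUP62 and IL4I1 on the opposite strand, which had 102 and 4 counts over the 8 libraries. The sources used here do not say whether counting used strand, so how reads from the shared bases were counted is not known.

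CEBPB (ENSG00000172216, chromosome 20 from 50190830 to 50192668) encodes C/EBPβ, a bZIP factor that can pair with ATF4. It had 77, 78, 76 and 68 counts in siCTRL and 77, 71, 97 and 78 in siAPEX1. The counts were thus of similar size, while the siAPEX1 libraries were smaller. Scaled, all siAPEX1 libraries lay above all siCTRL libraries, at 63.2 ± 5.10 CPM (SD, n = 4) against 37.3 ± 1.49 CPM (SD, n = 4), and the log2 fold change was 0.76 (standard error 0.121). CEBPB had the tightest siCTRL group relative to its mean among the 10 genes. It shares exon bases with CEBPB-AS1 on the opposite strand, which had 5 counts over the 8 libraries together.

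The ratio of CEBPB to ATF4 counts within a library does not depend on scaling. It was 0.570, 0.886, 0.717 and 0.8 in siCTRL and 1.38, 1.09, 1.59 and 1.86 in siAPEX1. ATF4 had more counts than CEBPB in every siCTRL library and fewer in every siAPEX1 library. Both genes belong to the set chosen on this contrast, so their separation is a description and no test.

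**Figure D2:**
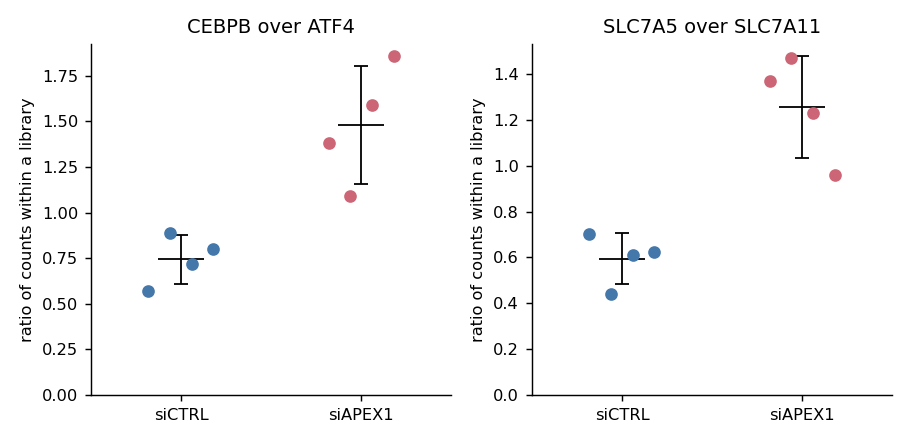
Ratio of counts within each library (vertical axes, from 0) for CEBPB over ATF4 (left) and SLC7A5 over SLC7A11 (right) in siCTRL (blue) and siAPEX1 (red), 4 libraries each, with the mean ± SD. The groups do not overlap in either panel, with 0.570 to 0.886 against 1.09 to 1.86 on the left and 0.439 to 0.703 against 0.959 to 1.47 on the right. The genes were chosen with results of these data known, so the ratios are a description only.

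ATF3 (ENSG00000162772, chromosome 1 from 212565334 to 212620777) encodes a stress-induced bZIP factor that ATF4 is known to switch on. It had 31, 29, 35 and 25 counts in siCTRL and 21, 31, 23 and 22 in siAPEX1. Scaled, the siAPEX1 libraries lay above the siCTRL libraries by a narrow margin, from 16.6 CPM upward against at most 16.2 CPM, and replicate 2 stood apart at 25.2 CPM. The log2 fold change was 0.35 (standard error 0.196).

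DDIT3 (ENSG00000175197, chromosome 12 from 57516588 to 57521737, minus strand) encodes CHOP, the bZIP factor known for the apoptotic arm of the response. It had 32, 32, 41 and 33 counts in siCTRL and 25, 22, 33 and 31 in siAPEX1. The groups overlapped when scaled, at 17.2 ± 1.68 CPM (SD, n = 4) and 21.7 ± 3.11 CPM (SD, n = 4), and the log2 fold change was 0.34 (standard error 0.182). DDIT3 shares exon bases with MARS1 and MBD6 on the opposite strand, which had 235 and 81 counts over the 8 libraries. The strand setting is not given in the sources used here, so how reads from the shared bases were counted is not known.

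DDIT4 (ENSG00000168209, chromosome 10 from 72273919 to 72276036) encodes REDD1, an inhibitor of mTORC1 signalling. It had 102, 92, 96 and 76 counts in siCTRL and 83, 99, 104 and 82 in siAPEX1. After scaling all siAPEX1 libraries lay above all siCTRL libraries, at 72.2 ± 6.80 CPM (SD, n = 4) against 45.6 ± 3.97 CPM (SD, n = 4). The log2 fold change was 0.66 (standard error 0.118), a fold of 1.58.

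TRIB3 (ENSG00000101255, chromosome 20 from 362835 to 397559) encodes a pseudokinase that is a known feedback inhibitor of ATF4 and CHOP. It had 53, 38, 45 and 41 counts in siCTRL and 28, 22, 19 and 35 in siAPEX1. The scaled siAPEX1 libraries spread from 13.7 to 27.8 CPM, a range that took in every siCTRL library (18.4 to 26.6 CPM). The log2 fold change was −0.11 (standard error 0.192).

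PHGDH (ENSG00000092621, chromosome 1 from 119648411 to 119744218) encodes the first enzyme of serine synthesis. It had 26, 32, 22 and 16 counts in siCTRL and 4, 3, 4 and 5 in siAPEX1. All siAPEX1 libraries lay below all siCTRL libraries, at 3.15 ± 0.653 CPM (SD, n = 4) against 11.9 ± 2.97 CPM (SD, n = 4). The log2 fold change was −1.90 (standard error 0.331), and the ratio of summed counts was 0.262 (exact 95% counting interval 0.144 to 0.448).

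The enzymes next to PHGDH were taken from a list of 20 genes for amino acid synthesis and one-carbon metabolism, of which 8 had enough counts to be tested. Of these, 3 were lower, beside 15.8% of all genes tested, and 0 higher, beside 15.9%, and the median change was −0.55 on the log2 scale. PYCR1, which makes proline, fell by 1.27 on the log2 scale (adjusted p = 1.49e-06, edgeR). The mitochondrial folate enzymes SHMT2 and MTHFD2 fell by 0.95 (adjusted p = 0.00768) and by 0.55 (adjusted p = 0.00419). For SHMT2 only 1 siAPEX1 library reached the cutoff of the filter on low counts, so its call follows in part from the filter. At an unadjusted p of at most 0.05 edgeR called 5 lower and 0 higher, and DESeq2 called 1 lower and 0 higher, with adjusted p = 0.131 for SHMT2 and 0.0753 for MTHFD2. Without siAPEX1 replicate 3 MTHFD2 had −0.40 (adjusted p = 0.0587). PSAT1, the enzyme after PHGDH, was not tested and had 10, 19, 30 and 18 counts in siCTRL and 4, 8, 3 and 7 in siAPEX1. PSPH, a further enzyme of serine synthesis, was not tested either and did not share this fall. It had 11, 6, 12 and 8 counts in siCTRL and 9, 2, 7 and 8 in siAPEX1, a mean of 4.61 CPM against 5.11 CPM. ASNS, which makes asparagine and is a widely used ATF4 target, had at most 3 counts in any library, so no change could be seen at this depth.

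**Figure D3:**
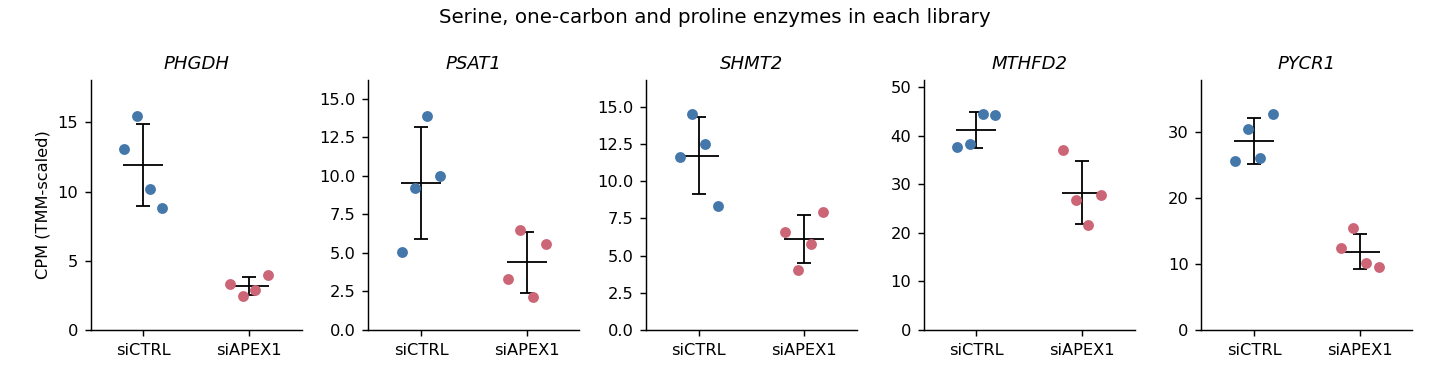
TMM-scaled CPM (vertical axes, each from 0) of PHGDH and of 4 enzymes of serine, one-carbon and proline synthesis in 4 siCTRL (blue) and 4 siAPEX1 (red) libraries, with the mean ± SD. The groups are apart for PHGDH, SHMT2, MTHFD2 and PYCR1 and overlap for PSAT1.

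SLC3A2 (ENSG00000168003, chromosome 11 from 62856004 to 62888880) encodes the heavy chain that amino acid exchangers share, and SLC7A11 (ENSG00000151012, chromosome 4 from 138164097 to 138242349, minus strand) the light chain of the cystine-glutamate exchanger xCT. SLC3A2 had 71, 60, 64 and 67 counts in siCTRL and 41, 40, 48 and 48 in siAPEX1. SLC7A11 had 91, 123, 121 and 93 counts in siCTRL and 68, 51, 69 and 73 in siAPEX1. Scaled, both groups overlapped for both genes, with log2 fold changes of 0.09 (standard error 0.143) for SLC3A2 and −0.06 (standard error 0.127) for SLC7A11. SLC7A11 shares exon bases with SLC7A11-AS1 on the opposite strand, which had 2 counts in all.

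SLC7A5, the light chain of the leucine exchanger LAT1, pairs with the same heavy chain. It rose by 1.02 on the log2 scale (adjusted p = 3.86e-08, edgeR), from 31.2 ± 3.50 CPM (SD, n = 4) to 63.6 ± 9.04 CPM (SD, n = 4). Within a library the ratio of SLC7A5 to SLC7A11 counts was 0.703, 0.439, 0.612 and 0.624 in siCTRL and 1.37, 1.47, 1.23 and 0.959 in siAPEX1. The siAPEX1 libraries thus all lay above the siCTRL libraries, which is a description of genes chosen with results of these data known. SLC7A5 was the only gene past the threshold among the 6 tested of 14 further amino acid transporters. This is 16.7% higher and 0.0% lower, beside 15.9% and 15.8% of all genes tested. The glutamine transporters SLC38A1 and SLC38A2 had −0.30 (adjusted p = 0.0623) and −0.21 (adjusted p = 0.103). The count of lower transporters was 0 with edgeR and with DESeq2, and 2 where the unadjusted p was 0.05 or lower. It was 4 when scaled by library size alone, beside 36.2% of all genes tested.

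Between genes, levels were compared per kilobase of the canonical transcript. The libraries were made with a small-RNA kit, and whether their counts scale with transcript length was not tested. In siCTRL ATF4 was highest, at 36.4 ± 7.85 CPM per kb (SD, n = 4), followed by DDIT4 at 26.1 ± 2.27. CEBPB (20.3 ± 0.811), DDIT3 (19.1 ± 1.86) and SLC3A2 (17.4 ± 2.18) came next, and neighbours among these differed by less than the larger of their SDs. TRIB3 had 9.40 ± 1.48, ATF3 7.69 ± 0.601, PHGDH 6.38 ± 1.59, SLC7A11 5.52 ± 0.620 and ATF5 3.75 ± 0.788, where PHGDH differed from ATF3 and from SLC7A11 by less than its SD. In siAPEX1 the order began with DDIT4 at 41.4 ± 3.90 and CEBPB at 34.4 ± 2.77, and ATF4 at 31.0 ± 5.67 differed from CEBPB by less than its SD. PHGDH (1.69 ± 0.35) and ATF5 (0.595 ± 0.413) closed the order.

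The scaling moved the members together. Scaled by library size alone, all genes tested had a median of −0.34 on the log2 scale. On that scale the log2 fold change was 0.42 for CEBPB, 0.32 for DDIT4, 0.01 for ATF3, −0.57 for ATF4 and −0.40 for SLC7A11. The direction of SLC3A2 turned, from 0.09 to −0.26, and DDIT3 moved from 0.34 to 0.00. Of the 10 genes 2 were then called higher, beside 6.33% of all genes tested, and 4 lower (ATF4, SLC7A11, ATF5 and PHGDH), beside 36.2%. Relative to that median the values were 0.77 for CEBPB, 0.66 for DDIT4, −0.23 for ATF4, −1.90 for PHGDH and −2.58 for ATF5. ATF5 passed the filter on low counts in 13 of the 18 fits made and PHGDH in 17. Over the 18 fits the log2 fold change of TRIB3 ran from −0.45 to 0.08, that of SLC7A11 from −0.40 to 0.05 and that of SLC3A2 from −0.26 to 0.15, so these 3 genes have no settled direction.

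**Figure D4:**
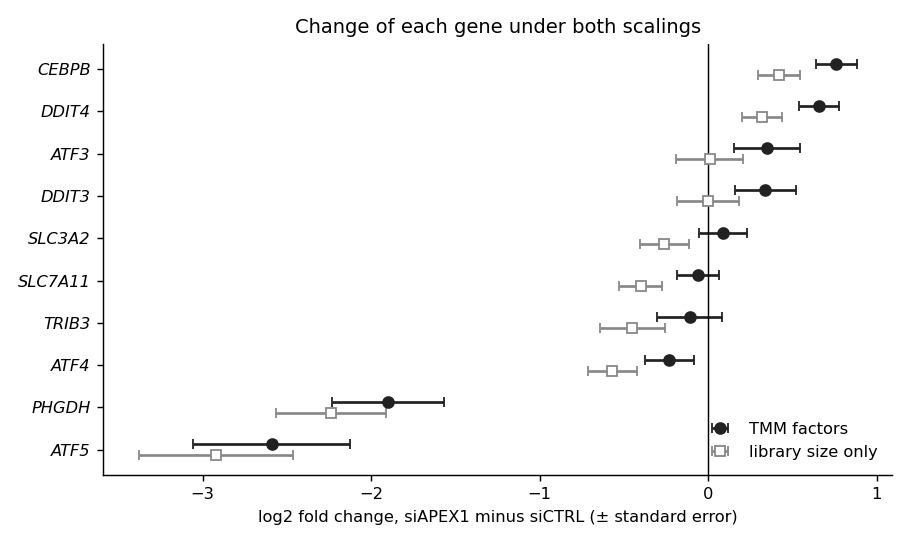
Log2 fold change of each gene, siAPEX1 minus siCTRL (horizontal axis, ± standard error), with TMM factors (black circles) and with library size only (open squares). The squares lie to the left of the circles for every gene, and ATF3 and DDIT3 move from 0.35 and 0.34 to 0.01 and 0.00.

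Around the 10 genes, 7 lists with 134 further genes of the pathway were examined, of which 89 could be tested. At an adjusted p of at most 0.05, 19 were higher and 19 lower, which is 21.3% of the 89 each way, beside 15.9% higher and 15.8% lower over all genes tested. The median change over the 89 was −0.03 on the log2 scale. With library size only 11 were higher and 38 lower, beside 6.33% and 36.2% of all genes. With DESeq2 13 were higher and 10 lower, beside 445 and 431 of the 22272 genes with at least 1 count. The counts from DESeq2 below stand beside these same numbers. Among the genes called with TMM factors, 3 of the 19 higher and 6 of the 19 lower passed the filter on low counts only with the group in which they were high. Under 4 libraries of their other group reached its cutoff, so their calls follow in part from the filter. The higher ones were SESN2, EIF2S1 and GADD45A, and the lower ones EIF4EBP1, LONP1, SHMT2, WARS1, ATF6 and YARS1. For SESN2, EIF4EBP1 and LONP1 no library of the other group reached the cutoff. Genes past the threshold that the naming rule does not cover are named because they passed, after their values were seen. PSPH, BBC3 and SESN1 are also named outside the rule, beside related genes, and did not pass or were not tested.

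Of the upstream genes, 17 of 22 were tested, with 2 higher and 4 lower (11.8% and 23.5%, beside 15.9% and 15.8% of all genes). EIF2S1, the phosphorylated subunit of eIF2, rose by 0.97 on the log2 scale (adjusted p = 0.00268), and PPP1R15A, which encodes the phosphatase subunit GADD34, by 0.65 (adjusted p = 0.00272). EIF2AK2, the kinase PKR, fell by 0.76 (adjusted p = 0.00024), EIF2S3, another eIF2 subunit, by 0.63 (adjusted p = 0.000403), PPP1CA, a phosphatase catalytic subunit, by 1.03 (adjusted p = 0.000185) and DNAJC3, an inhibitor of eIF2 kinases, by 1.06 (adjusted p = 1.24e-06). EIF2AK1 and EIF2AK4, the kinases HRI and GCN2, had −0.25 (adjusted p = 0.222) and 0.31 (adjusted p = 0.367), and EIF2S2, the remaining eIF2 subunit, had 0.10 (adjusted p = 0.584). EIF2AK3, the kinase PERK, was not tested and had 5 to 12 counts in siCTRL and 6 to 8 in siAPEX1. With DESeq2 EIF2S1 and PPP1R15A did not pass (adjusted p = 0.0818 and 0.0849), which left 0 higher. With library size only PPP1R15A did not pass (0.31, adjusted p = 0.144), and EIF2AK4 and EIF2S2 turned to −0.03 and −0.24.

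Of 23 transcription factors listed as partners of the ATF4 family, 18 were tested, with 6 higher and 2 lower (33.3% and 11.1%, beside 15.9% and 15.8% of all genes). The list includes CEBPZ, which is named like a C/EBP factor but is not a bZIP protein. CEBPD rose by 1.20 on the log2 scale (adjusted p = 2.47e-06), FOS by 1.0 (adjusted p = 1.11e-08), NFE2L2, the oxidative stress factor NRF2, by 0.91 (adjusted p = 5.02e-06) and JUND by 0.56 (adjusted p = 0.000914). JUN rose by 0.75 and FOSL2 by 0.46 (adjusted p = 0.0423), and ATF6 and NFE2L1 fell, by 1.06 and 0.68. With DESeq2 5 were higher and 1 lower, since FOSL2 and NFE2L1 did not pass (adjusted p = 0.314 and 0.22). CEBPG, the known heterodimer partner of ATF4, had 0.11 (adjusted p = 0.736), and −0.23 with library size only. With library size only 4 were higher, beside 6.33% of all genes, since JUND (0.22, adjusted p = 0.184) and FOSL2 (0.12, adjusted p = 0.607) did not pass.

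Of 27 stress outputs of the ATF4 and DDIT3 branch, 16 were tested, with 7 higher and 5 lower (43.8% and 31.2%, beside 15.9% and 15.8% of all genes). With DESeq2 6 were higher and 3 lower, beside 445 and 431 of 22272 genes. With library size only 5 were higher and 6 lower, beside 6.33% and 36.2% of all genes. SESN2, a leucine sensor that restrains mTORC1, rose by 2.21 on the log2 scale (adjusted p = 1.42e-06), from 3 to 7 counts in siCTRL to 10 to 20 in siAPEX1. SESN2 passed the filter on low counts only through siAPEX1, the group in which it was high, so its call follows in part from the filter. DESeq2, fitted to the same low counts without that filter, gave SESN2 an adjusted p = 0.000194, which is no independent support. CDKN1A, the cell cycle inhibitor p21, rose by 1.60 (adjusted p = 1.42e-11). GDF15, a stress cytokine, rose by 0.46 (adjusted p = 0.00156) but not with library size only (0.12, adjusted p = 0.432). GADD45A, ERO1A, TNFRSF10B and VEGFA rose, by 1.37, 0.81, 0.72 and 0.71, but VEGFA passed neither with DESeq2 (adjusted p = 0.2) nor with library size only (adjusted p = 0.195). SESN2, CDKN1A, GADD45A, TNFRSF10B and GDF15 are also known targets of p53. So are BBC3, which did not pass (0.48, adjusted p = 0.0956), and SESN1, which had too few counts to be tested. The part of p53 in these changes was not tested. SQSTM1, the autophagy receptor p62, fell by 0.72 (adjusted p = 1.15e-07). EIF4EBP1, HERPUD1, STC2 and XPOT fell, by 1.41, 0.58, 0.58 and 0.63, but STC2 and XPOT did not pass with DESeq2 (adjusted p = 0.238 and 0.207). EIF4EBP1 passed the filter on low counts only through siCTRL, the group in which it was high. CHAC1, which degrades glutathione, was not tested, with 3 to 8 counts in siCTRL and 1 to 7 in siAPEX1.

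Of 20 cytosolic aminoacyl-tRNA synthetases, 17 were tested, with 1 higher and 4 lower (5.88% and 23.5%, beside 15.9% and 15.8% of all genes). WARS1 fell by 2.22 on the log2 scale (adjusted p = 1.02e-08), from 42 to 55 counts in siCTRL to 4 to 12 in siAPEX1, and SARS1 by 0.69 (adjusted p = 0.00604). For WARS1 only 1 siAPEX1 library reached the cutoff of the filter on low counts, so its call follows in part from the filter. WARS1 is also known as a gene that interferon induces. GARS1 and YARS1 fell, by 0.53 and 0.65, and LARS1 rose by 0.74 (adjusted p = 0.000778). With DESeq2 1 was lower, since SARS1, GARS1 and YARS1 did not pass (adjusted p = 0.109, 0.184 and 0.259). With library size only 10 were lower and 0 higher, beside 36.2% and 6.33% of all genes, LARS1 having 0.40 (adjusted p = 0.0539). EPRS1 and TARS1, the most abundant of the list, had −0.13 (adjusted p = 0.481) and 0.06 (adjusted p = 0.783), and TARS1 turned to −0.28 with library size only and to −0.03 with either other filter on low counts.

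Of 8 mitochondrial stress genes linked to ATF5, 7 were tested, with 2 higher and 1 lower (28.6% and 14.3%, beside 15.9% and 15.8% of all genes). The chaperonin HSPD1 rose by 0.33 on the log2 scale (adjusted p = 0.0249) and the protease SPG7 by 0.65 (adjusted p = 0.0379), while the protease LONP1 fell by 1.02 (adjusted p = 0.015). The chaperone HSPA9 had 0.20 (adjusted p = 0.245). With library size only HSPD1 and HSPA9 turned to −0.02 and −0.14. With DESeq2 0 of the 8 were called in either direction (adjusted p = 0.216 for HSPD1, 0.323 for SPG7 and 0.169 for LONP1). LONP1 did not pass without siAPEX1 replicate 4 (adjusted p = 0.0546) or without siCTRL replicate 3 (adjusted p = 0.0817). It passed the filter on low counts only through siCTRL, the group in which it was high, so its call follows in part from the filter.

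**Figure D5:**
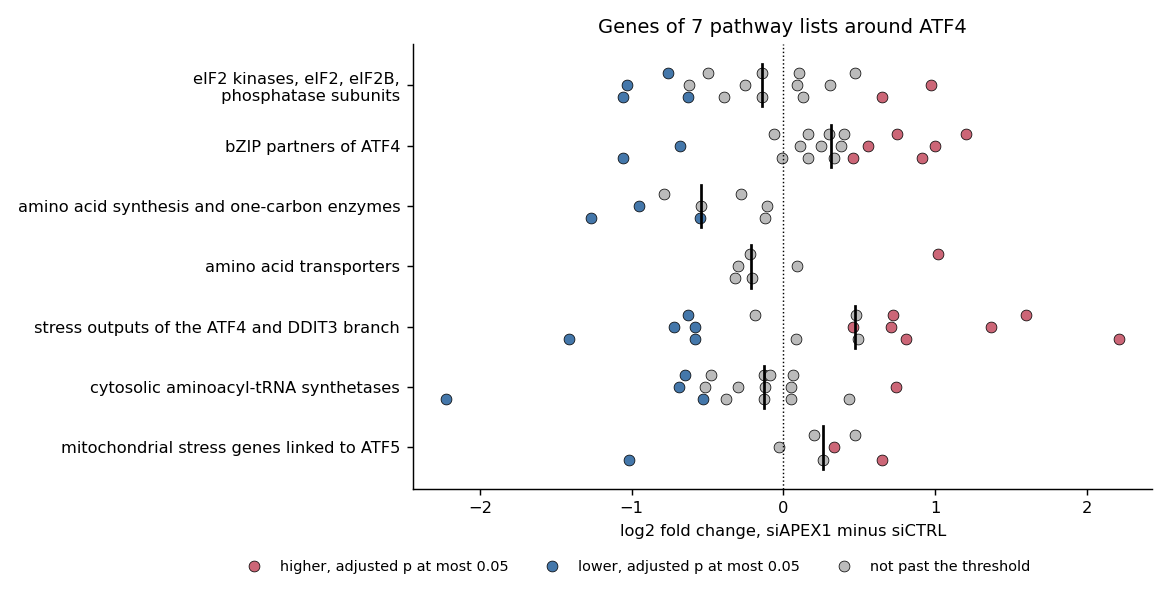
Log2 fold change, siAPEX1 minus siCTRL with TMM factors (horizontal axis), of the 89 tested genes in 7 lists around ATF4, 1 point a gene, with a black bar at each list's median. Points are red where higher and blue where lower at an adjusted p of at most 0.05, and grey otherwise; the medians run from −0.55 for the amino acid enzymes to 0.47 for the stress outputs.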

How the data were processed

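RNA-seq libraries were made from total RNA of A549 cells with the SMARTer smRNA-Seq kit. The authors removed adapters and tails, aligned reads to GRCh38 with STAR 2.5.3a (per the submitters' processing notes) and deposited raw gene counts from its GeneCounts function. The strand setting and the annotation release are not given in the sources used here. The study calls the replicates biological without saying whether each was its own transfection, and p-values measure the spread between these libraries. GENCODE 44 holds 57532 of the 58302 genes. Counts were tested in R 4.3.3 with edgeR 4.0.16 (TMM factors, filterByExpr with a minimum count of 10 and total of 15, quasi-likelihood test, Benjamini-Hochberg). CPM SDs are over 4 libraries. Alternatives were DESeq2 1.42.0, other scalings and filters, a replicate block, APEX1 left out and each library left out. The code was tested on simulated data. The members and lists were chosen with earlier results of these data known. Genes named beyond the members were, from each list, the 3 with the smallest adjusted p, the 2 with the highest CPM and 15 set by name. Same-numbered libraries of the groups correlated between −0.0373 and −0.00348 in their deviations from the group means, so no pairing by number was seen. This check could miss a weak pairing.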

Additional observations from a re-analysis of the deposited data

Results flagged for a closer look

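Among the 10 members and the further genes that the naming rule covers, 94 groups of 4 libraries were examined by Dixon's criterion. It looks for a single library far from the other 3, and 7 groups stood apart. Chance alone flags about 1 group in 20. Genes named outside that rule were not examined. ATF5 had 2.43 CPM in siAPEX1 replicate 2, against 0.721 to 0.823 CPM in the other siAPEX1 libraries, which is a difference between 3 counts and 1 count. ATF3 had 25.2 CPM in the same library, against 16.6 to 17.5 CPM. WARS1 had 9.88 CPM in siAPEX1 replicate 1, against 3.18 to 3.60 CPM. SLC38A2 had 160.0 CPM in siAPEX1 replicate 4, against 123 to 127 CPM. In siCTRL, replicate 2 had 13.1 CPM of EIF2AK4, against 9.41 to 9.73 CPM, and 59.6 CPM of HSPA9, against 48.7 to 49.1 CPM. ASNS had 0.927 CPM in siCTRL replicate 3, which is 2 counts, and 0 counts in the other siCTRL libraries.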

How the results depend on the processing

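Over all genes tested, 856 were higher and 847 lower, against 340 and 1945 with library size only, 445 and 431 with DESeq2, and 193 and 305 when a log2 fold change of 1 or more in either direction was also required. The replicate block gave 806 higher and 789 lower and, since no pairing by number was seen, is given only here. Among the 134 further pathway genes, 19 were higher and 19 lower. Library size only gave 11 and 38, the fold threshold 5 and 7, DESeq2 10 lower, and all genes with at least 1 count 29 lower. Of the 10 members, 2 were higher and 2 lower. The fold threshold left 0 higher. The count of lower members was 4 with library size only, 1 with APEX1 left out, 0 with at least 10 counts in every library, and 1 to 2 with each library left out. It was 1 without siCTRL replicate 1, 2 or 4, since ATF5 then failed the filter, as it did with APEX1 left out. Both ATF5 and PHGDH failed the filter of at least 10 counts. With library size only the log2 fold change reversed for EIF2AK4 (−0.03), EIF2S2 (−0.24), CEBPG (−0.23), TARS1 (−0.28), HSPD1 (−0.02) and HSPA9 (−0.14). TARS1 was also −0.03 with all genes of at least 1 count and with at least 10 counts in every library. HSPD1 did not pass without siCTRL replicate 1, 2 or 3 or siAPEX1 replicate 4 (adjusted p = 0.053 to 0.12). SPG7 did not pass without siCTRL replicate 2, 3 or 4 or siAPEX1 replicate 2 or 3 (adjusted p = 0.0506 to 0.14). SLC38A1 passed without siCTRL replicate 1 or 3 (adjusted p = 0.0268 and 0.0448) and SLC38A2 without siAPEX1 replicate 4 (adjusted p = 0.0416). The causes were not tested. Low counts limit ATF5 and PHGDH in siAPEX1, with 6 and 16 counts over 4 libraries.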
